A study of Homo sapiens with 12 samples.

Results

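The comparison described here is the effect of ferric ammonium citrate (FAC), a soluble iron salt that loads cells with iron, in HEK293 cells that also received oleic acid. It was chosen by sample title. The 3 libraries titled oleic acid with FAC were set against the 3 titled oleic acid alone, which makes 6 of the 12 libraries in the series. HEK293 is an immortalised human embryonic kidney line, and all 4 groups of the study (vehicle, oleic acid, FAC, and oleic acid with FAC, 3 libraries each) were this line. The study asked how the fatty acid alters ferroptosis brought about by FAC. The labels give no dose and no exposure time, and they number the replicates without saying whether a number marks a separate culture. The p-values therefore measure the spread between these libraries, which may be technical. One cell line stands behind every value.

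Cells sense iron through iron regulatory proteins. When iron is scarce these proteins bind stem-loops called iron responsive elements (IREs). Bound elements in the 3′ untranslated region (UTR) of the transferrin receptor mRNA protect it from decay, and bound elements in the 5′ UTR of ferritin mRNAs block their translation. Iron loading releases the proteins, so receptor mRNA is lost while ferritin is controlled at the protein level. Ferroptosis is a death driven by iron-dependent peroxidation of polyunsaturated membrane lipids. Oleic acid is monounsaturated and can replace those lipids.

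Sequence elements of this kind are shown first because TFRC and MAT2A, the genes with the steepest falls among called genes with a mean of at least 1 on the log2 CPM scale, carry them in several copies. The IRE search asked for a C, then 5 bases of any kind, then CAGTG, then a base other than G, with those 5 bases able to pair with the 5 after the loop (G with U allowed). Only the transcript strand was searched, in GENCODE 29 transcripts written with T for U. The transcript TFRC-201 held 4 matches, all in exon 19 of 19 in the 3′ UTR, on the minus strand of chromosome 3 (GRCh38). The first begins 934 bases after the stop codon and spans chr3:196050979-196051008. The others span chr3:196050575-196050604, chr3:196050510-196050539 and chr3:196050463-196050492. The ferritin transcripts FTH1-201 (chr11:61967574-61967603, minus strand) and FTL-201 (chr19:48965334-48965363, plus strand) and the ferroportin transcript SLC40A1-201 (chr2:189580661-189580690, minus strand) held 1 match each, in exon 1, in the 5′ UTR. Each window has 30 bases, read 5′ to 3′, and capitals mark the letters that open the loop.
TFRC site 1: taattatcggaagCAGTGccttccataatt
TFRC site 2: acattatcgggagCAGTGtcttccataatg
TFRC site 3: tctgtatcggagaCAGTGatctccatatgt
TFRC site 4: taattatcgggaaCAGTGtttcccataatt
FTH1 site: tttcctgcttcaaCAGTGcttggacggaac
FTL site: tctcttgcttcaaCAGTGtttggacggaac
SLC40A1 site: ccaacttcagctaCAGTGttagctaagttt

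MAT2A makes S-adenosylmethionine, the methyl donor of the cell, and its 3′ UTR carries hairpins that the methyltransferase METTL16 reads as a sensor of that donor. The letters TACAGAGAA, the core of those hairpins, occurred 5 times in the transcript MAT2A-201. All 5 lie in exon 9 of 9 on the plus strand of chromosome 2, in the 3′ UTR, and the first begins 30 bases after the stop codon. The sites span chr2:85543802-85543831, chr2:85544589-85544618, chr2:85544774-85544803, chr2:85544889-85544918 and chr2:85545112-85545141. Capitals mark the searched letters.
MAT2A site 1: tggcgtaggcTACAGAGAAgccttcaagct
MAT2A site 2: tgtgatgtcaTACAGAGAAgtcacagggca
MAT2A site 3: ctggtgtagcTACAGAGAAaccagcttcct
MAT2A site 4: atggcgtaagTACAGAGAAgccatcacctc
MAT2A site 5: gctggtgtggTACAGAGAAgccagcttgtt

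Among the most abundant transcripts of 14016 tested genes, 0.920% held at least 1 IRE match and 1 transcript, that of TFRC, held 4 or more. At least 1 TACAGAGAA was present in 3.35%, and 1 transcript, that of MAT2A, held 5 or more. These matches are letters in a transcript and not measured binding. Genes with at least 1 match were called at a share near that of all genes: of 129 genes with an IRE match 2 passed the test described next (TFRC and ZNF587B, 1.55%), and of 470 genes with TACAGAGAA 9 passed (1.91%), against 2.21% of all genes tested.

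The libraries held 14098216 to 18717397 estimated counts. Levels are given as CPM, counts scaled by effective library size with trimmed-mean normalization factors, and they compare 1 gene between libraries, not different genes, because they are not divided by length. In a principal component analysis over 12408 genes the first component (42.7% of the variance) put 2 libraries apart, the third with oleic acid (35.6) and its partner with FAC (54.4), while the other 10 lay between -20.3 and 6.54. The second component (18.9%) had every FAC library below 0 and every library without FAC above 0. In the third library of both groups the deviation from the group's own mean also ran with transcript length. The correlation across genes was -0.640 and -0.487, against 0.257 to 0.505 in the first and second libraries of both groups. Deviations within a group sum to 0, so these opposite signs are not separate observations. The share of counts from mitochondrially encoded genes was 5.05%, 6.64% and 7.09% with oleic acid and 3.33%, 7.5% and 12.1% with oleic acid and FAC. HEK293 identity markers were present (12 of 12 tested). Summed markers of fibroblasts, epithelium, endothelium, blood and hepatocytes reached at most 25.6 CPM in any of the 6 libraries, with ranges that overlapped between both groups. Members without a count there were 1 of 10 for fibroblasts, 1 of 9 for epithelium and 2 of 8 for endothelium. For blood they were 3 of 10 and for hepatocytes 2 of 8. FAP, KRT5, CLDN5, CD3E, HBB and CYP3A4 were among them, and the other members had counts. In bulk RNA, fewer cells of a type and less RNA per cell cannot be told apart. Because the third libraries stand apart, results are also given paired by replicate number.

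FAC changed 314 of 14209 tested genes in oleic acid-fed cells (2.21%, edgeR quasi-likelihood test on all 12 libraries, Benjamini-Hochberg adjusted p under 0.05). 108 genes rose (0.760%) and 206 fell (1.45%). Changes were mostly modest: the median fold was 1.63, 24 genes rose and 37 fell at least 2-fold, and 82 were under 1.5-fold. In all 314 genes the 3 libraries with FAC did not overlap the 3 without. The sign was therefore the same in all 3 same-numbered pairs, which adds nothing further. Of all tested genes 18.1% had groups that did not overlap. With the replicate number as a block the same 12 libraries gave 740 genes (5.21%), 277 higher (1.95%) and 463 lower (3.26%), and all 314 were among them. DESeq2 called 775 genes, which is 3.54% of the 21902 with a p-value. Its default filter can leave low-count genes without an adjusted p, so this share is not like the edgeR shares.

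The settings moved the count further when the 6 libraries stood alone. Tested unpaired, they gave 19 of 13800 genes (0.138%), 7 higher (0.0507%) and 12 lower (0.0870%). Tested as 3 pairs, they gave 2851 (20.7%), 1524 higher (11.0%) and 1327 lower (9.62%), which again held all 314. Most of these were small changes: 2234 were under 1.5-fold and 136 reached 2-fold. The share of called genes that were higher was 34.4% in the fit of all 12 libraries and 53.5% in the paired fit of 6. With the transcript length trend removed, the unpaired fit of 6 gave 253 genes, 90 of them higher, and the paired fit 2750, 1435 of them higher.

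Single libraries moved the count widely, in both directions. With oleic acid, leaving out the first library gave 69, the second 103 and the third 449. With oleic acid and FAC, leaving out the first gave 146, the second 55 and the third 173. Without the third library of both groups it was 356, of which 215 were shared with the 314. Every one of the 314 kept its sign in each fit described in this and the preceding paragraphs.

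**Figure D1:**
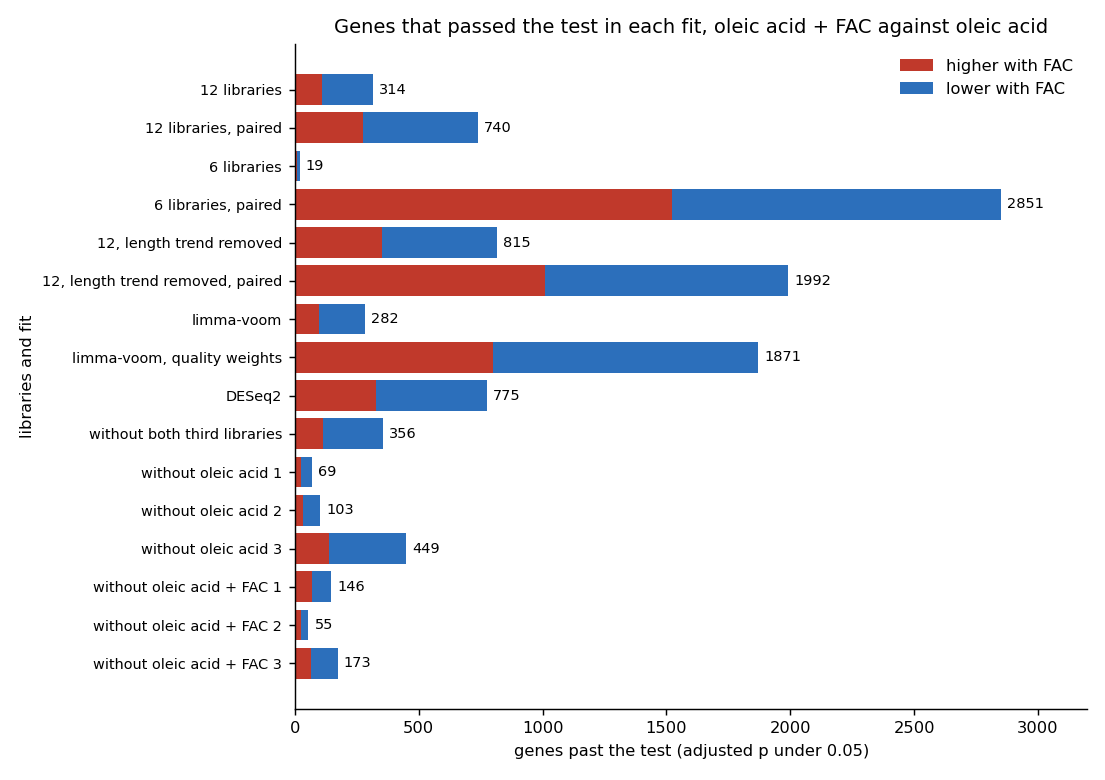
Number of genes past the test (x axis, adjusted p under 0.05) for each fit of oleic acid with FAC against oleic acid (y axis), red for genes higher and blue for genes lower with FAC. The count was 314 with all 12 libraries, 19 with the 6 libraries unpaired and 2851 with the same 6 paired by replicate number.

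TFRC, the transferrin receptor that brings transferrin-bound iron into the cell (ENSG00000072274, chr3:196027183-196082189), had the largest fall among the named genes. It was 130, 122 and 57.8 CPM in the 3 oleic acid libraries and 16.3, 14 and 13.3 CPM with FAC. With oleic acid the third library was lower than the others, and the groups did not overlap. The fall was 7.09-fold (log2 -2.83 ± 0.25 SE, edgeR adjusted p = 0.000215), with log2 ratios of -2.98, -3.11 and -2.10 in the pairs. MAT2A (ENSG00000168906, chr2:85539165-85545280) was 213, 249 and 174 CPM without FAC and 54.3, 47.8 and 38.8 CPM with it. The groups were far apart and the pairs alike. The fall was 4.51-fold (log2 -2.17 ± 0.22 SE, edgeR adjusted p = 0.000372). Both genes passed the test in every alternative fit run, including each fit without 1 library. MAT2A alone passed among 20 tested genes of the methionine cycle and of the m6A control of MAT2A, beside 2.21% of all genes. With the block METTL14 was higher and MTRR and CBS were lower as well, beside 1.95% of all genes higher and 3.26% lower.

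INSIG1, an endoplasmic reticulum protein that holds back the sterol-sensing SREBP transcription factors (ENSG00000186480, chr7:155297776-155310235), rose the most of all called genes above the low-level limit for naming (a mean of 1 on the log2 CPM scale). It was 77.5, 64.6 and 97.6 CPM with oleic acid and 356, 440 and 488 CPM with FAC added, a rise of 5.36-fold (log2 2.42 ± 0.20 SE, edgeR adjusted p = 0.000165). It too passed in every fit. BHLHE40, a transcriptional repressor that responds to hypoxia and the circadian clock (ENSG00000134107, chr3:4979116-4985323), was 32.6, 26.7 and 36.4 CPM without FAC and 59.5, 62.7 and 69.9 CPM with it. That is a rise of 2.01-fold (log2 1.01 ± 0.18 SE, edgeR adjusted p = 0.0145). The BHLHE40 call was lost without the first oleic acid library (edgeR adjusted p = 0.0605), the second (0.0676) or the second oleic acid with FAC library (0.0631), and it held in the paired fit of 6 libraries (0.000192).

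**Figure D2:**
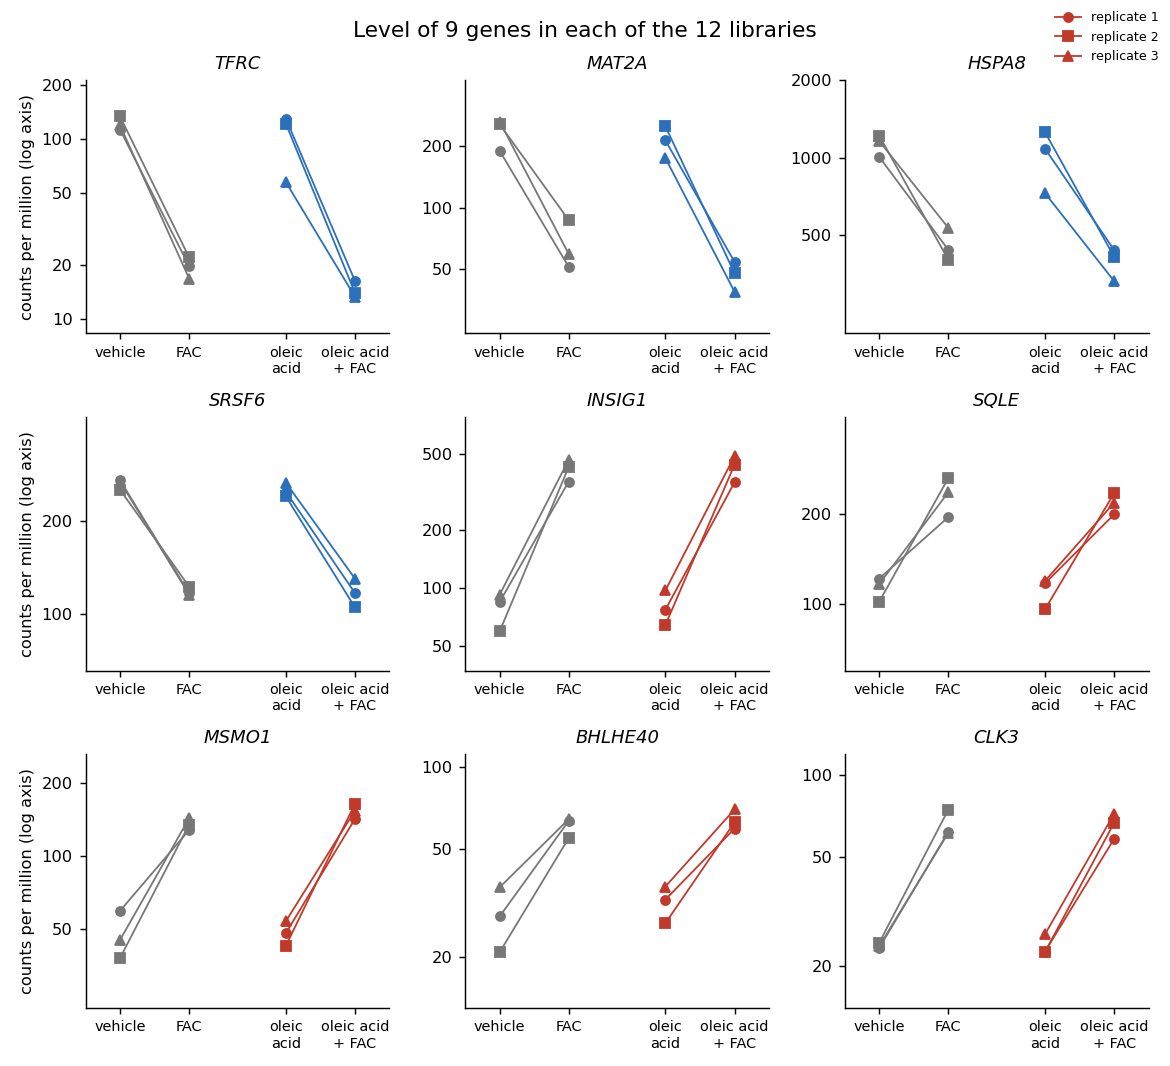
CPM (log axis) of 9 genes in all 12 libraries, with a line joining libraries of the same replicate number, gray for vehicle and FAC and colored for oleic acid and oleic acid with FAC. TFRC, MAT2A, HSPA8 and SRSF6 lie lower with FAC in every pair and INSIG1, SQLE, MSMO1, BHLHE40 and CLK3 higher; the third oleic acid library sits low for TFRC and HSPA8.

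Among 23 tested genes of iron uptake, storage, export and sensing, TFRC alone passed the test, beside 2.21% of all genes. The list's median log2 fold change was 0.01, beside 0.0025 over all genes. The ferritin subunits, which store iron, did not pass. The heavy chain FTH1 was 382, 397 and 515 CPM without and 462, 523 and 668 CPM with FAC, with overlapping groups (log2 0.35 ± 0.17 SE, edgeR adjusted p = 0.345). The light chain FTL had a log2 fold change of 0.48 ± 0.26 SE (edgeR adjusted p = 0.389). Both were higher with FAC in 3 of 3 pairs, and the paired fit of 6 libraries called them (edgeR adjusted p = 0.00441 for FTH1 and 0.00132 for FTL). That fit called 20.7% of all genes. With the length trend removed, the differences were 0.15 for FTH1 and 0.27 for FTL on the log2 scale (edgeR adjusted p = 0.293 and 0.245). SLC40A1, or ferroportin, which exports iron, was 5.84, 4.51 and 2.39 CPM without and 3.67, 2.67 and 1.70 CPM with FAC (edgeR adjusted p = 0.345, and 0.0554 in the paired fit of 6). With the block on 12 libraries STEAP2, a metalloreductase (log2 -0.71, edgeR adjusted p = 0.0499), and ID1, a target of the BMP signal that informs iron balance (log2 -1.03, edgeR adjusted p = 0.0116), also passed. The list then had 3 lower and 0 higher members, beside 3.26% and 1.95% of all genes.

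Genes tied to ferroptosis did not pass the test in oleic acid-fed cells. Of 25 tested genes of glutathione synthesis, GPX4 and parallel defences, 0 passed either with or without the block on 12 libraries. Over all genes 5.21% passed with it and 2.21% without it. The median log2 fold change of the 25 was -0.02. Without the third library of both groups 2 of the 25 were higher, as were 115 of all 14404 genes tested. GPX4, the peroxidase that removes lipid peroxides, was 215, 221 and 332 CPM without and 253, 319 and 411 CPM with FAC (edgeR adjusted p = 0.388). SLC7A11, the cystine importer, was 13.8, 15 and 7.92 CPM without and 10.1, 9.48 and 7.03 CPM with FAC (edgeR adjusted p = 0.316). The 3 pairs of both genes had 1 sign, and the paired fit of 6 libraries called both, GPX4 higher (edgeR adjusted p = 0.00746) and SLC7A11 lower (0.0438). In that fit 3 of the 25 were higher and 3 lower, beside 11.0% and 9.62% of all genes. ACSL4, the ligase that loads polyunsaturated fatty acids for membrane synthesis, and AIFM2, which regenerates a lipid-soluble antioxidant, had log2 fold changes of 0.16 ± 0.16 SE and 0.05 ± 0.24 SE (edgeR adjusted p = 0.658 and 0.947). HMOX1, heme oxygenase, was at 0.33 ± 0.39 SE (edgeR adjusted p = 0.720). CHAC1 and PTGS2, transcripts often followed in ferroptosis, lay lower with FAC in 3 of 3 pairs, at log2 -0.80 ± 0.35 SE and -1.14 ± 0.42 SE, and did not pass (edgeR adjusted p = 0.289 and 0.202). CHAC1 passed in the paired fit of 6 (edgeR adjusted p = 0.0104). NRF2 targets answer oxidative stress. Of 25 tested, and of 35 genes of the ATF4 stress response, 0 passed without the block, beside 2.21% of all genes. Their medians were 0.23 and -0.02 on the log2 scale, beside 0.0025 over all genes. With the block SRXN1 fell among NRF2 targets and CBS among ATF4 genes, beside 3.26% of all genes. The paired fit of 6 called 8 of 24 NRF2 targets higher and 2 lower, beside 11.0% and 9.62% of all genes. It called 5 of 35 ATF4 genes higher and 5 lower.

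The sterol genes that passed all rose. SREBP factors switch on cholesterol synthesis and uptake when sterols are low, and INSIG1 is both their brake and their target. INSIG1 rose on the list of sterol sensing and SREBP control, where 0 of 20 tested genes fell. Of 14 tested enzymes from squalene to cholesterol 3 rose (MSMO1, SQLE and SC5D) and 0 fell, and IDI1 rose among 12 mevalonate enzymes, beside 0.760% of all genes that rose.

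Within the enzymes, MSMO1, a sterol demethylase, was 48.2, 42.8 and 53.9 CPM without and 142, 164 and 153 CPM with FAC, 3.17-fold (edgeR adjusted p = 0.000215). SQLE, which commits squalene to sterols, was 118, 96.4 and 120 CPM without and 199, 235 and 218 CPM with FAC (edgeR adjusted p = 0.00505). Both passed without any 1 library. IDI1, an isomerase of isoprenoid units, rose 2.17-fold (edgeR adjusted p = 0.0138) and lost the call without the first or second oleic acid library (0.0605 and 0.0658) or the second oleic acid with FAC library (0.0695). SC5D, a desaturase, rose 1.37-fold (edgeR adjusted p = 0.0481) and lost it without any 1 of the 6 (0.0730 to 0.136). HMGCS1, an early enzyme of the mevalonate pathway, was 287, 235 and 265 CPM without and 378, 403 and 376 CPM with FAC (edgeR adjusted p = 0.0862, 0.0608 with the block and 0.00151 in the paired fit of 6).

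Fatty acid genes did not pass the test. Of 23 tested genes of fatty acid synthesis, elongation and desaturation, 23 of lipid droplets and triglyceride, 30 of fatty acid oxidation and 18 of acyl-CoA activation, 0 passed without the block, beside 2.21% of all genes. With the block on 12 libraries GPAT4, an enzyme of glycerolipid synthesis on the lipid droplet list, was lower. SCD, the desaturase that makes oleate, was 419, 422 and 311 CPM without and 541, 560 and 374 CPM with FAC (log2 0.36 ± 0.16 SE, edgeR adjusted p = 0.308, and 0.00498 in the paired fit of 6). PLIN2, which coats lipid droplets, was 17.1, 19.4 and 18.0 CPM without and 16.8, 14.8 and 16.6 CPM with FAC (log2 -0.18 ± 0.12 SE, edgeR adjusted p = 0.488). CPT1A, which admits fatty acids to mitochondria, had a log2 fold change of -0.06 ± 0.19 SE (edgeR adjusted p = 0.914). PDK4, a kinase that spares glucose when fat is burned, had one of 0.34 ± 0.21 SE (edgeR adjusted p = 0.438).

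**Figure D3:**
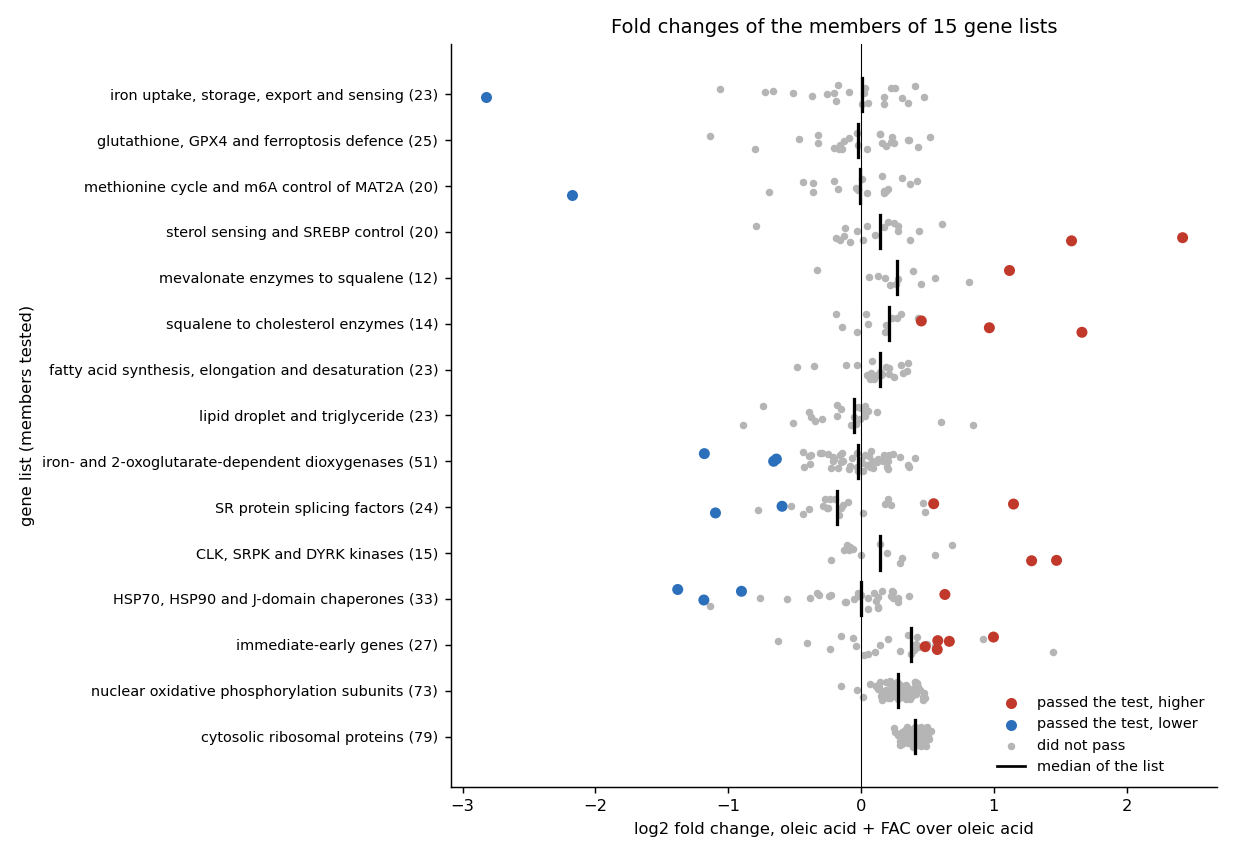
Log2 fold change (x axis) of each tested member of 15 gene lists (y axis, members tested in brackets), red and blue for members past the test and gray for the others, with the list's median as a black bar. TFRC and MAT2A stand alone on their lists, sterol lists have red members only, and the ribosomal protein members are all above 0 with none past the test.

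Splicing regulators moved in both directions. Of 15 tested kinases of the CLK, SRPK and DYRK families, which phosphorylate splicing factors, 2 rose and 0 fell, beside 0.760% of all genes that rose and 1.45% that fell. CLK3 was 22.5, 22.4 and 26.1 CPM without and 58.3, 66.7 and 72.0 CPM with FAC, 2.77-fold (edgeR adjusted p = 0.000165). CLK4 was 10.2, 10.4 and 9.19 CPM without and 22, 28.0 and 22.7 CPM with FAC (edgeR adjusted p = 0.000968). With the block on 12 libraries CLK1 and DYRK1B rose as well, which made 4 of 15, beside 1.95% of all genes. Of 24 SR protein splicing factors 2 fell and 2 rose, beside the same shares, and the median was -0.18 on the log2 scale (0.0025 over all genes). SRSF6 fell from 248, 240 and 266 CPM to 117, 105 and 130 CPM (2.14-fold, edgeR adjusted p = 0.000275). Its groups were separated by a wide gap, and it kept the call without any 1 library, as did CLK3 and CLK4. SRSF7 fell 1.51-fold (edgeR adjusted p = 0.0460), while RSRP1 rose 2.22-fold (0.0230) and LUC7L2 1.46-fold (0.0390). These 3 lost the call in 4 or 5 of the 6 fits without 1 library: edgeR adjusted p reached 0.185 for SRSF7 without the second oleic acid with FAC library, and 0.105 for RSRP1 and 0.166 for LUC7L2 without the first oleic acid library. RSRC2, another arginine- and serine-rich protein, rose 2.26-fold (edgeR adjusted p = 0.00204).

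Of 47 tested hnRNP and RBM RNA-binding proteins 4 fell and 0 rose, beside 1.45% and 0.760% of all genes. RBM5 was 46.1, 44.3 and 38.2 CPM without and 17.6, 20.9 and 19.1 CPM with FAC (edgeR adjusted p = 0.0338). RBM12 fell 1.90-fold (edgeR adjusted p = 0.00942), RBM28 1.51-fold (0.0268) and RBM10 1.43-fold (0.0237). RBM12 lost the call without the second oleic acid with FAC library (edgeR adjusted p = 0.0523). RBM5, RBM28 and RBM10 kept it in 1 of the 6 fits without 1 library, the fit without the third oleic acid library; without the first, their edgeR adjusted p was 0.119, 0.0999 and 0.0729. The median of the list was 0.09 on the log2 scale, beside 0.0025 over all genes.

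Chaperone genes fell where they passed, apart from 1 regulator. Of 33 tested HSP70, HSP90 and J-domain genes, 3 fell and 1 rose, beside 1.45% and 0.760% of all genes. HSPA8, the constitutive HSP70, was 1084, 1257 and 727 CPM without and 437, 411 and 331 CPM with FAC, a fall of 2.60-fold (edgeR adjusted p = 0.00505). Its co-chaperone DNAJA1 fell 1.87-fold (edgeR adjusted p = 0.0416) and HSPA2 fell 2.27-fold (0.0210). HSF2, a heat shock transcription factor, was 70.2, 69.2 and 71.2 CPM without and 103, 110 and 114 CPM with FAC (edgeR adjusted p = 0.00689). HSPA8 and HSF2 passed without any 1 library. DNAJA1 lost the call in 5 such fits, with adjusted p up to 0.162 without the second oleic acid with FAC library, and HSPA2 in those without that library (0.0906) or the first oleic acid library (0.0729). With the block on 12 libraries 7 members fell, among them DNAJB1 and HSPA1B, and 1 rose, beside 3.26% and 1.95% of all genes. Of 26 genes of the endoplasmic reticulum chaperone list 1 rose, DNAJB9 (1.74-fold, edgeR adjusted p = 0.0106, and 0.0560 without the first oleic acid library).

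Immediate-early genes, which respond to growth and stress signals within minutes, included 5 that rose among 27 tested and 0 that fell, beside 0.760% and 1.45% of all genes. Their median was 0.37 on the log2 scale, beside 0.0025 over all genes. EGR1 was 58.9, 46.1 and 46.5 CPM without and 69.5, 108 and 125 CPM with FAC (2.00-fold, edgeR adjusted p = 0.0417). The first pair stood at a log2 ratio of 0.24 and the others at 1.23 and 1.42. KLF6 rose 1.59-fold (edgeR adjusted p = 0.0245), DUSP1, a phosphatase of MAP kinases, 1.49-fold (0.0182) and MYC 1.49-fold (0.0221). EGR1, KLF6, DUSP1 and MYC lost the call without the first oleic acid library (edgeR adjusted p = 0.0884, 0.0702, 0.0592 and 0.0864), without the second (0.149, 0.0739, 0.0699 and 0.0648) and without the second with FAC (0.143, 0.113, 0.0643 and 0.100). KLF10 was the other member that rose (log2 0.48, edgeR adjusted p = 0.0382). FOS had a mean of 6.62 CPM without and 18.0 CPM with FAC and passed with the block (edgeR adjusted p = 0.0704 without it and 0.00684 with it). Of 20 tested CXCL chemokine and NF-kB feedback genes 1 fell: CXCL8, which encodes interleukin-8, went from 6.13, 6.92 and 5.01 CPM to 2.62, 2.38 and 2.27 CPM (edgeR adjusted p = 0.0310, and 0.102 without the first oleic acid library).

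**Figure D4:**
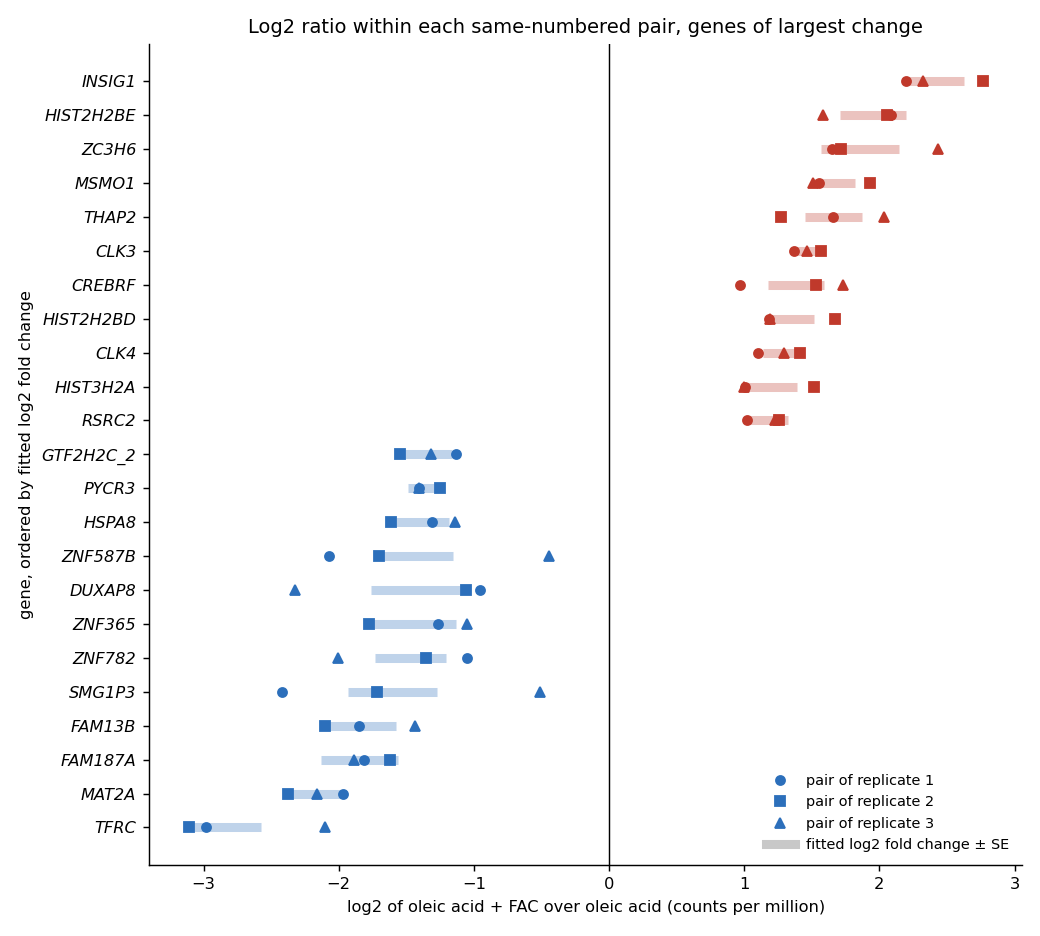
Log2 ratio of oleic acid with FAC over oleic acid (x axis) in each same-numbered pair for genes of largest change in both directions (y axis), with the fitted log2 fold change ± SE as a bar. These genes were chosen among those whose groups did not overlap, so every pair of a gene lies on the same side of 0 by that choice. The third pair stands nearest 0 for TFRC, SMG1P3 and ZNF587B.

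The other genes of largest change ranged over several functions. Upwards these were ZC3H6 (3.62-fold), THAP2 (3.16-fold) and CREBRF (2.60-fold), a regulator of the CREB3 stress pathway, each past the test without any 1 library. Histone genes HIST2H2BE (3.88-fold), HIST2H2BD (2.54-fold) and HIST3H2A (2.27-fold) were also there. The transcript HIST2H2BD-202 is annotated as a processed transcript, while HIST2H2BE-201 and HIST3H2A-201 are annotated as protein-coding. HIST2H2BD is not among the called members of the histone list. Of 29 tested members of the histone list 28 had a positive fold change, as did 7157 of all 14209 genes tested, and 4 rose, beside 0.760% of all genes. HIST3H2A lost its call without the first oleic acid library (edgeR adjusted p = 0.0702). Histone genes have near-identical copies, so the split of counts between them is uncertain, and replication-dependent histone mRNAs mostly lack the poly-A tail that this preparation selected. Downwards, FAM13B fell from 48.9, 45.2 and 26.9 CPM to 13.5, 10.4 and 9.87 CPM (edgeR adjusted p = 0.00535), and FAM187A fell 3.59-fold. PYCR3, which makes proline, fell from 27.3, 24.6 and 28.9 CPM to 10.2, 10.3 and 10.9 CPM (edgeR adjusted p = 0.000215), although 28.8% of its counts lay on transcripts matched in GENCODE 29. The zinc finger genes ZNF782, ZNF365 and ZNF587B fell 2.77-fold, 2.72-fold and 2.70-fold, and lost their calls without the first oleic acid library (edgeR adjusted p = 0.0605, 0.107 and 0.0884). SMG1P3, DUXAP8 and GTF2H2C_2 fell too, and all have close copies elsewhere, so their counts are uncertain. The first pair of these also lost the call without that library (0.107 for both).

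Smaller lists held isolated calls, to be read against 0.760% of all genes that rose and 1.45% that fell. Of 51 tested dioxygenases that use iron and 2-oxoglutarate 3 fell: JMJD4 (48.9, 51.4 and 59.7 CPM without and 22.3, 25.4 and 22.9 CPM with FAC, edgeR adjusted p = 0.00055), RIOX2 (1.58-fold, 0.0170) and HIF1AN, the hydroxylase that restrains hypoxia-inducible factor (1.56-fold, 0.0202). Of 23 heme genes ALAD fell by 0.59 on the log2 scale (edgeR adjusted p = 0.0426) and of 30 genes of iron-sulfur cluster assembly CIAO3 fell 1.93-fold (0.0416). CCNG2, an unconventional cyclin, and CDKN1B, an inhibitor of cyclin-dependent kinases, rose 1.78-fold and 1.43-fold and were the 2 called of 25 cyclins and inhibitors (edgeR adjusted p = 0.00257 and 0.0196). Of 27 p53 targets BBC3 and PMAIP1, which promote apoptosis, rose 2.01-fold and 1.54-fold (edgeR adjusted p = 0.0103 and 0.0246). The median of that list was -0.07 on the log2 scale, and 12 of 27 were positive. With the block CCNG1 was higher as well, and FAS and PHLDA3 were lower. Of 22 clock genes BHLHE40 and the repressor NR1D1 (1.77-fold, edgeR adjusted p = 0.00689) rose. With the block BHLHE41 and RORB were higher as well, and PER2 and CSNK1D were lower. The block called 1.95% of all genes higher and 3.26% lower. Of 35 targets of hypoxia-inducible factor BHLHE40 rose and TFRC fell, and of 8 proline genes PYCR3 fell. TFRC, PYCR3, JMJD4, CCNG2 and NR1D1 passed without any 1 library. RIOX2, HIF1AN, ALAD, CIAO3, CDKN1B, BBC3 and PMAIP1 lost the call in 2 to 6 of those fits: without the first oleic acid library the adjusted p was 0.0708 for RIOX2, 0.0731 for HIF1AN, 0.182 for ALAD, 0.0743 for CIAO3, 0.0702 for CDKN1B, 0.0562 for BBC3 and 0.105 for PMAIP1. The lists of ERK feedback (19 tested), metallothioneins and zinc transport (19), lysosome and autophagy (40) and replication licensing (32) had 0 calls without the block. With the block on 12 libraries DUSP4 on the ERK list and ATP6AP2 on the lysosome list were higher, and without the third library of both groups 1 gene of the metallothionein and zinc list was lower.

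Calls of ribosomal protein genes differed between the fits. All 79 tested cytosolic ribosomal protein genes had a positive fold change, beside 7157 of all 14209 genes, with a median of 0.40 on the log2 scale and medians of 0.37, 0.51 and 0.38 in the 3 pairs. In the fits of 12 libraries 0 passed with or without the block, beside 5.21% and 2.21% of all genes. In the paired fit of 6 libraries 78 were higher, beside 11.0% of all genes. Of 73 nuclear genes of oxidative phosphorylation 71 were positive (median 0.28), 0 passed on 12 libraries, and 47 were higher in the paired fit, beside the same shares. With the length trend removed the medians became 0.16 and 0.09. The paired fit of 6 then called 23 of 79 and 5 of 73, beside 2750 of all 13800 genes. Both medians stayed above 0 in every alternative run. The 13 mitochondrially encoded mRNAs had medians of -0.51, 0.33 and 0.99 in the pairs, beside the mitochondrial shares given above. The part of those shares in the ribosomal protein difference was not tested.

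FAC without oleic acid was compared in the 6 libraries that took no part in the contrast above, FAC against vehicle, within the same fit. It changed 169 genes (1.19%), 65 higher (0.457%) and 104 lower (0.732%). Leaving out any 1 vehicle or FAC library left 27 to 79 of such calls. All 314 genes had the same sign there, and 132 of them also passed, which is 42.0% of the 314 and 78.1% of the 169. All 169 genes had the same sign with oleic acid. Across 12408 genes the fold changes of both comparisons had a correlation of 0.693 and the same sign in 76.0%. Genes are not independent replicates, and both comparisons share the cell line, the preparation and the estimate of spread. The change was smaller without oleic acid in 246 of the 314 genes, which were chosen for passing with oleic acid.

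**Figure D5:**
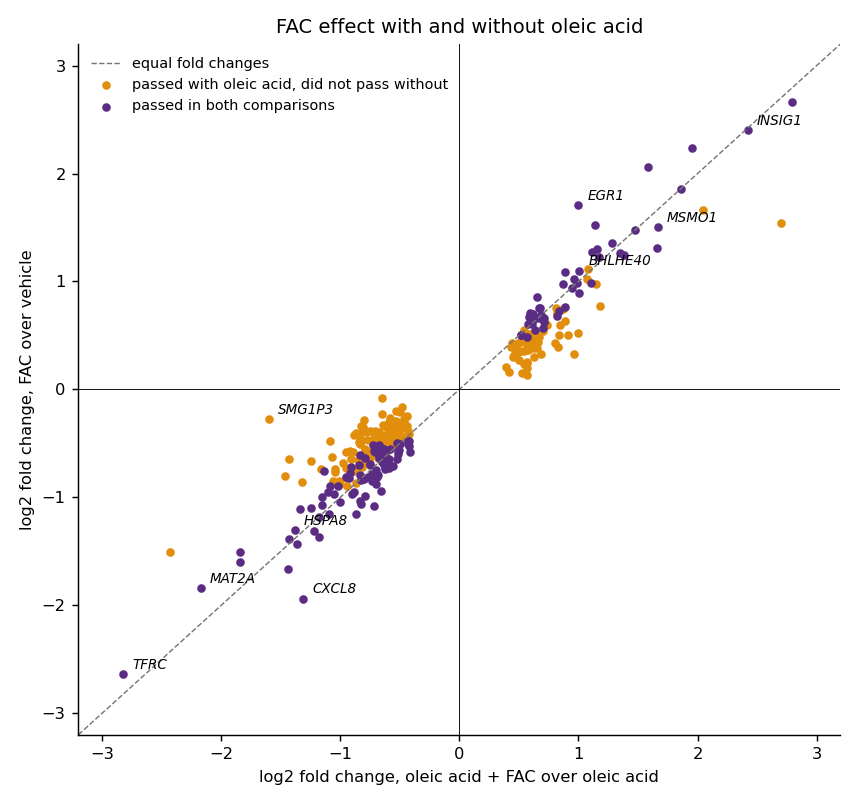
Log2 fold change of the 314 genes with oleic acid (x axis) against without it (y axis), purple for genes that passed in both comparisons and orange for those that passed with oleic acid only; the dashed line marks equal values. All 314 lie in the lower left or upper right quadrant, with TFRC and INSIG1 near the line.

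TFRC was 113, 134 and 119 CPM with vehicle and 19.7, 22.1 and 16.8 CPM with FAC, and the FAC effect with oleic acid minus the effect without it was -0.18 ± 0.34 SE on the log2 scale. The same difference was -0.33 ± 0.29 SE for MAT2A, 0.02 ± 0.27 SE for INSIG1 and -0.09 ± 0.25 SE for BHLHE40. None of these 4 passed, which does not show that the effects were alike: the standard errors set how small a difference could be seen. Tested over all genes, the interaction called 0 of 14209 by edgeR (smallest adjusted p = 1.00, 116 genes at an unadjusted p under 0.05). The block, DESeq2 and limma-voom also called 0, with 205, 140 and 125 genes at an unadjusted p under 0.05. PLIN2 shows a gene past the threshold in 1 comparison only: it fell with FAC alone, from 16.2, 15.5 and 14.8 CPM to 9.62, 8.63 and 10.1 CPM (edgeR adjusted p = 0.0146), and did not pass with oleic acid. The PLIN2 interaction was 0.53 ± 0.17 SE (edgeR adjusted p = 1.00). EGR1 rose with FAC alone from 28.6, 21.9 and 34.6 CPM to 70.1, 99.1 and 108 CPM (log2 1.71), with an interaction of -0.71 ± 0.32 SE (edgeR adjusted p = 1.00). The genes of lowest interaction p were AC073610.3, KCNJ5 and ENTPD2, all at or under 1.04 CPM in every library.

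At the level of transcripts 6 of 51464 passed (0.0117%, edgeR, with 3159 at an unadjusted p under 0.05), and 4 with the block, under which TFRC-201 and NCOA5-201 missed (edgeR adjusted p = 0.0996 and 0.0568). Without 1 library 2 to 17 passed, with 2 where the first oleic acid library or the second with FAC was left out. Those that fell were TFRC-201, MAT2A-201, NCOA5-201 and CRAMP1-202, and those that rose were INSIG1-201 and CLK3-201. NCOA5, a nuclear receptor coactivator named after its values were seen, had 76.1, 78.5 and 73.6 CPM of NCOA5-201 without and 34.8, 34.8 and 42.2 CPM with FAC. CRAMP1-202 was 8.87, 16.4 and 11.1 CPM with oleic acid and was listed at 0 in all 3 libraries with FAC added, while it was 9.94, 19.9 and 9.07 CPM with FAC alone. CRAMP1-201, the more abundant transcript of that gene in these libraries, was 31.5, 26 and 17.9 CPM without and 39.1, 37.6 and 24.2 CPM with FAC (edgeR adjusted p = 0.893). An exact 0 can be a failed assignment between such similar transcripts, and that was not tested.

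Transcript usage, the division of a gene's counts among its transcripts, differed in 661 of 10378 genes (6.37%, edgeR diffSpliceDGE with Simes p-values adjusted by Benjamini-Hochberg) and in 452 with the block, 396 of them in both. Of the 661, 12 also passed for level, a share near the 2.21% of all genes tested for level. In 150 of the 661 a transcript's share moved at least 10 percentage points with no overlap between groups. No like count over all tested genes is given here, so the 150 cannot be weighed against one. Leaving out the third oleic acid library gave 1314 genes, and the 6 libraries alone gave 112. The test takes its spread from a trend with transcript level, not from each gene's own values, and includes no assignment error. Single libraries led several of the lowest p-values. HDAC2-206 held 0%, 0% and 0% of HDAC2 counts without and 0%, 0.68% and 43.8% with FAC. RPL19-204 held 0.34%, 0.62% and 0.47% without and 0.83%, 1.56% and 21.7% with FAC. CRAMP1-202 moved in all libraries, from 21.3%, 38.0% and 38.3% to 0% in each.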

How the data were processed

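RNA of 12 HEK293 libraries was extracted, poly-A selected and sequenced, per the labels' protocols. The authors deposited estimated counts per gene and per transcript for each library. They are whole numbers in the files, so rounding changed 0 values. Tools listed in the submitters' processing notes are kallisto 0.46.1, sleuth 0.30.0 and bcl2fastq 2.19, and the genome listed is GRCh38.p12 (hg38). kallisto assigns reads to transcripts by likelihood, so counts of near-identical transcripts and gene copies are shared by estimate. Library totals ranged from 14098216 to 18717397.

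Genes past edgeR's filterByExpr (14209) were tested with edgeR 4.0.16 in R 4.3.3, by its quasi-likelihood test on all 12 libraries with trimmed-mean scaling, 1 coefficient per group and no block. FAC against vehicle and the interaction came from the same fit. Transcripts were fitted in the same way, and transcript usage was tested with diffSpliceDGE. All p-values were adjusted by Benjamini-Hochberg over all features tested, at a threshold of 0.05. DESeq2 differed in that its default filter can leave low-count genes without an adjusted p. The scripts were tested on simulated data. Alternatives were the replicate block, the 6 libraries alone, DESeq2 1.42.0, limma 3.58.1 (voom, with and without quality weights), another scaling, no filter, removal of the transcript length trend, and leaving out libraries.

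Same-numbered oleic acid and oleic acid with FAC libraries deviated together (correlations across genes of 0.619, 0.457 and 0.734, against -0.648 to 0.392 for different numbers), so the block was treated as a pairing that comes from the data and the shared numbers. The labels do not say that a number marks a shared culture. No replicate pair agreed within sampling noise (chi-square per degree of freedom 8.14 or more).

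Named genes were a fixed set of iron, ferroptosis, lipid and sterol genes, the 12 highest and 12 lowest called genes whose groups did not overlap and whose log2 CPM averaged 1 or more, up to 4 called members of each list, and the 3 lowest interaction p-values. Genes named only because the block called them, KLF10 and NCOA5 were chosen after their values were seen. Results for a few of these are not reported here. The members and lists were chosen with earlier results of these data known. Gene and transcript positions are from GENCODE 29 (GRCh38), in which 97.13% of symbols and 89.93% of transcripts were found.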

Additional observations from a re-analysis of the deposited data

Results flagged for a closer look

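KCNJ5, a potassium channel gene, moved in opposite directions with FAC in the presence and absence of oleic acid. It was 0.584, 0.483 and 0.523 CPM with oleic acid and 0.233, 0.227 and 0.355 CPM with FAC added, against 0.247, 0.405 and 0.220 CPM with vehicle and 0.585, 0.790 and 0.597 CPM with FAC alone. The FAC effect with oleic acid minus the effect without it was -2.1263 on the log2 scale. ENTPD2, which encodes an ectonucleotidase, did likewise: 0.584, 0.429 and 0.598 CPM with oleic acid and 0.291, 0.114 and 0.284 CPM with FAC added, against 0.432, 0.116 and 0.165 CPM with vehicle and 0.845, 0.684 and 0.477 CPM with FAC alone. Its difference was -2.6893 on the log2 scale. Both genes were singled out as 2 of the 3 with the lowest interaction p, so their opposite signs follow from that choice and support nothing. What marked them is that the log2 ratio had 1 sign in all 3 pairs with oleic acid and the other sign in all 3 without it, where libraries were paired by a number that marks no known link between them. The test of the difference over all genes did not pass for either (edgeR adjusted p = 1.00), and both genes were under 1 CPM in every library.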

How the results depend on the processing

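Of the 314 genes changed by FAC in oleic acid-fed cells, all kept their direction in every alternative, while the number called moved widely. It was 740 with the replicate block, 19 with the 6 libraries alone and 2851 with those 6 and the block, 775 with DESeq2 (42.5% higher, against 34.4%), 1871 with limma-voom quality weights (42.7% higher), 815 with the length trend removed (43.4% higher) and 1992 with that and the block (50.8% higher). With the third library of both groups left out and the block it was 697. Without 1 library it ranged from 55 to 449, and 46.6% of the 146 called without the first oleic acid with FAC library were higher. The remaining settings stayed within 1.5 times, apart from those chosen after seeing the data: the block without the first oleic acid library gave 191, without the third 579, and without the second oleic acid with FAC library 108 and without the third 207, and the 6 libraries with block and length trend removed gave 2750. FAC against vehicle gave 431 genes with the block, 351 in its 6 libraries alone, 1052 with those and the block, 505 with DESeq2, 880 with quality weights, 459 with the length trend removed, 1115 with that and the block, 672 without the third libraries of both oleic acid groups, 1043 with that and the block, and 27 to 79 without 1 library. Its same-numbered libraries had correlations of 0.340, 0.457 and 0.004, against -0.469 to 0.182 for different numbers. The first and second pairs lay above that range and the third pair within it. The interaction called 0 in every alternative. Transcripts called were 0 in the 6 libraries with and without the block, 25 without the third library of both groups and 2 to 17 without 1 library. Genes of changed usage were 112 in the 6 libraries, 386 with the block there, and 443 to 1314 without 1 library. Among the 57 named genes that passed, 23 kept the call without any 1 library. The block ended none of their calls. The calls that it added on the gene lists are given in the report only in part.

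Log2 fold changes near 0 changed sign. Without 1 library ACSL4 ranged from -0.0122 to 0.2585, AIFM2 from -0.1506 to 0.1879 (also -0.0881), CPT1A from -0.1995 to 0.1135 (also 0.0549), COL1A1 from -0.1811 to 0.2046 (also -0.1067), HBA1 from -0.2306 to 1.1355 (also -0.2043) and AC073610.3 from -0.0679 to 0.8719. With the block and 1 library left out, AIFM2 was -0.0143 (the third with FAC), CPT1A 0.0636 (the first oleic acid) and 0.0511 (the third with FAC), COL1A1 -0.0446 (the second with FAC) and -0.0718 (the third oleic acid), HBA1 -0.5587 (the first oleic acid) and -0.2916 (the third with FAC), and AC073610.3 -0.2113 (the first oleic acid). Without the third library of both groups COL1A1 was -0.0156 and HBA1 -0.0534, and with the block as well -0.0151 and -0.1409. HBA1 was -0.0360 with the length trend removed and the block. None of these genes passed in the fit reported. The cause of these shifts was not tested. Genes under 1 CPM rest on few counts at this depth.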
